A study of Mus musculus with 7 samples.

Results

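The voltage-gated sodium channel genes examined here are 8 genes taken by symbol from the gene list of the count files. They comprise the alpha subunit genes Scn1a, Scn2a, Scn3a, Scn8a and Scn9a and the beta subunit genes Scn2b, Scn3b and Scn4b, and stand among 49315 genes in the files, of which 18352 were tested. Counts were high enough for a test in 7 of the 8, and Scn4b was the gene left out. RNA was sequenced from primary mouse oligodendroglia of Klf13-knockout pups (KLF13-deficient, 3 libraries) and of wildtype controls (4 libraries). Klf13 encodes a Krüppel-like zinc finger transcription factor, and the knockout is carried by every cell of the animal. In both groups the cells came from the brains of newborn mice of both sexes, were grown as mixed glia, shaken off as oligodendrocyte precursor cells (OPCs), depleted of microglia and kept for 6 days in SATO medium with thyroid hormones. The strain, and whether a culture pooled several pups, are not given in the sources used here. The labels call the libraries biological replicates.

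The alpha subunit of a voltage-gated sodium channel forms the pore, senses voltage and passes the inward sodium current that starts an action potential. Beta subunits are single-pass membrane proteins with an immunoglobulin domain that change the gating and surface density of the pore and also act as adhesion molecules. Neurons are the main site of these genes in the brain, but OPCs also carry sodium currents, which are lost as the cells mature.

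The libraries held 24507471 to 59596479 counts on genes. Klf13 itself (chromosome 7, 63886351 to 63938915, GRCm38) fell from 11338 ± 645 normalized counts (SD, n = 4) to 880 ± 79.8 (n = 3), a log2 fold change of -3.69, in the direction the labels give. All 10 myelinating oligodendrocyte markers were called lower in the knockout (adjusted p of at most 0.05), beside 12.2% of all genes tested. Their sum went from 25123 to 28793 CPM (counts scaled to the same library total) in controls to 7177 to 8234. A fall between groups does not tell which cell types a culture holds. Control replicate 3 stood apart by its microglial markers, at 1676 summed CPM against 336 to 738 in the other libraries, and the fold changes of the tested sodium channel genes are given with and without it. Between 6.03% and 18.0% of the counts fell on Gm42418, Gm23935 and Lars2, which overlap or resemble ribosomal RNA. Of the controls, replicates 1 and 4 exceeded 10%, as did replicates 1 and 3 of the knockout.

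The genes lie on 3 chromosomes (GRCm38). On chromosome 2 stand, in this order, Scn3a (65457118 to 65567627, minus strand), Scn2a (65620771 to 65767447, plus), Scn1a (66270778 to 66440840, minus) and Scn9a (66480080 to 66634962, minus). Chromosome 9 carries Scn3b (40269217 to 40291618), Scn2b (45117782 to 45130070) and Scn4b (45138395 to 45154152), all on the plus strand, and Scn8a lies on chromosome 15 (100869858 to 101045938, plus). Counts were taken over exons. Scn9a shares 180 exonic bases, 1.41% of its length, with Gm13629 on the opposite strand, and the strand setting of the counting is not stated, so reads there cannot be told apart. Of the 75-base stretches of their transcripts, 1.88% to 3.85% in Scn1a, Scn2a, Scn3a and Scn9a also occur in another gene, while Scn8a, Scn2b, Scn3b and Scn4b share none.

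Promoter windows were searched on both strands for the 6-letter Klf motif of the study, of which ACGCCC is 1 form. The first base is A or C, then comes C, the third is A, G or T, and it ends in CCC, which gives 6 forms, with overlapping matches counted. RefSeq windows (GRCm38.p6) from 250 bases before to 50 bases after the start were found for 6 of the 8 genes, 8 windows in all. None was found for Scn3a and Scn3b. The 3 windows shown are those of Scn2b, which was called higher in the knockout, of Scn1a, which was also called higher, and the first of 2 windows of Scn8a, which was not called. Capitals mark the motif matches, on either strand. The windows are, for Scn2b, chr9:45117626-45117925 (plus strand), for Scn1a, chr2:66440788-66441087 (minus strand), and for Scn8a, chr15:100870395-100870694 (plus strand).
Scn2b: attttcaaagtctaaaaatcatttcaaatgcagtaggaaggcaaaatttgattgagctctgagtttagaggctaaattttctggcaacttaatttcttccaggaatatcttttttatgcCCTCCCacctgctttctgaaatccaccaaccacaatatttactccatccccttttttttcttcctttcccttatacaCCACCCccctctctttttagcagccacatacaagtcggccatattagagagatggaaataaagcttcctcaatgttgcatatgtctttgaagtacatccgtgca
Scn1a: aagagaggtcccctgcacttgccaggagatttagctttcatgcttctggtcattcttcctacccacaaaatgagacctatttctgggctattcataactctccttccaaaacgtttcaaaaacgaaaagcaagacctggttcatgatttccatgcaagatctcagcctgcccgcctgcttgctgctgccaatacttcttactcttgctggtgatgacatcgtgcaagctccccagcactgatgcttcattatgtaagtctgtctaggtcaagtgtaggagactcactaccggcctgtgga
Scn8a: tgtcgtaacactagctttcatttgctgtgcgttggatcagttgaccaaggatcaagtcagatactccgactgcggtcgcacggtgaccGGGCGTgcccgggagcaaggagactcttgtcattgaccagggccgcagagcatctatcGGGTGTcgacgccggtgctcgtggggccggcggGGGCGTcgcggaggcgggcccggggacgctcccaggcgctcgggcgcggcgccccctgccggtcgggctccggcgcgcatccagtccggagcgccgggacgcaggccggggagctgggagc
The Scn2b window holds 2 matches, the Scn1a window 0 and the Scn8a window shown 3, while the second Scn8a window holds 0 and the 2 windows of Scn2a hold 0 and 1. Among 32851 promoter windows of the genome, 76.8% hold at least 1 match, 55.2% at least as many as the Scn2b window and 38.8% at least as many as the Scn8a window shown. The single windows of Scn4b and Scn9a hold 4 matches each, and 26.4% of all windows hold at least as many. A match is a description of the letters, and no binding was measured in these libraries.

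Of the 8 genes, 5 were called higher in KLF13-deficient cells at an adjusted p of at most 0.05, 0 lower, 2 were not called and 1 was not tested. Over all genes tested, 11.6% were called higher and 12.2% lower. The count of 0 lower held at an unadjusted p of at most 0.05 in edgeR, and with DESeq2 and limma-voom. At the log2 fold change of 1 that the study required, Scn3b was the single gene called, beside 3.97% of all genes tested. The median log2 fold change of the 7 tested genes was 0.61, against -0.0037 over all genes tested. In 6 genes every knockout library lay above every control, an order seen in 18.3% of all genes tested.

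**Figure D1:**
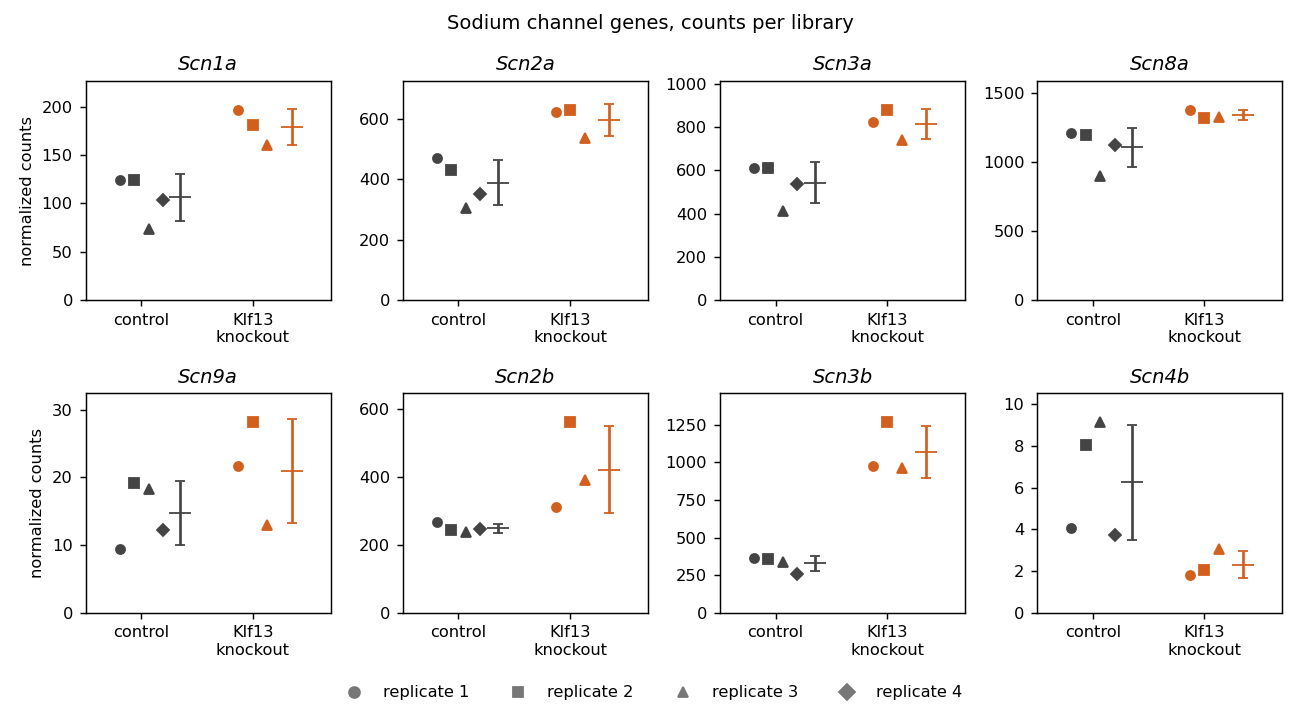
Normalized counts (y axis, linear from 0, counts scaled to a common library size) of the 8 sodium channel genes in 4 control libraries (grey) and 3 Klf13-knockout libraries (orange), with symbols for replicate numbers and the mean ± SD beside the points. In 6 panels the knockout points lie above all control points, in Scn9a the groups overlap, and in Scn4b the knockout points are lower at a few counts per library.

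Scn3b had the largest fold change of the tested genes. It encodes beta-3, a beta subunit that is not covalently bound to the pore and is prominent in the embryonic and early postnatal brain. Its normalized counts in replicate order were 362, 360, 336 and 256 for the controls and 977, 1270 and 964 for the knockout. The lowest knockout library stood far above the highest control, and knockout replicate 2 was the highest of all. The means were 329 ± 49.5 and 1070 ± 173, and the log2 fold change was 1.71 ± 0.16 (SE, adjusted p = 0.00055), which is 3.26-fold (95% interval 2.54 to 4.19). Leaving out 1 library at a time kept the log2 fold change between 1.56 and 1.78 and the gene called each time.

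Scn2b encodes beta-2, a beta subunit that is linked to the pore by a disulfide bond. Its normalized counts were 269, 244, 238 and 248 in the controls and 312, 563 and 391 in the knockout libraries. The controls lay close together and below every knockout library, whereas the knockout libraries were far apart, with replicate 2 the highest. The log2 fold change was 0.76 ± 0.19 (SE, adjusted p = 0.0274). With the replicate number as a block it was 0.73 ± 0.21 with an adjusted p of 0.0641, so the call was lost. It was also lost on leaving out any of 5 libraries. Without control replicate 3 the log2 fold change was 0.74 (adjusted p = 0.0522), and without knockout replicate 2 the log2 fold change was 0.50 (adjusted p = 0.0645).

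Of the 4 pore genes of the chromosome 2 cluster, Scn1a, Scn2a and Scn3a were called higher, with smaller fold changes than that of Scn3b. Scn1a encodes Nav1.1, a channel found above all in inhibitory neurons. Its normalized counts were 124, 124, 73.2 and 104 in wildtype controls against 197, 181 and 160 in the knockout libraries, with no overlap and control replicate 3 the lowest. The log2 fold change was 0.75 ± 0.21 (SE, adjusted p = 0.0370). Scn2a encodes Nav1.2, which is found in unmyelinated and immature axons and is also expressed in the oligodendrocyte lineage. It stood at 471, 429, 304 and 350 in the controls and at 621, 630 and 535 in the knockout libraries, again without overlap, with a log2 fold change of 0.61 ± 0.16 (SE, adjusted p = 0.0316). Scn3a encodes Nav1.3, the channel of the embryonic brain. Its values were 613, 609, 413 and 539 against 825, 881 and 741, and the log2 fold change was 0.59 ± 0.15 (SE, adjusted p = 0.0280). In each of the 3 genes control replicate 3 was the lowest library, and knockout replicate 3 was the lowest of its group. Without control replicate 3 the log2 fold changes of Scn1a, Scn2a and Scn3a were 0.61, 0.51 and 0.47, and all 3 remained called, while Scn3b was at 1.72.

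Scn8a encodes Nav1.6, the main channel of mature nodes of Ranvier, and had the highest count of the 8 genes in every library. Its normalized counts were 1213, 1193, 903 and 1125 in the controls and 1379, 1316 and 1327 in the knockout libraries. All knockout libraries lay above all controls, but the highest control was close to the lowest knockout library. The log2 fold change was 0.27 ± 0.11 (SE, 95% interval 0.03 to 0.52, adjusted p = 0.106), which did not pass the threshold. Without control replicate 3, the lowest library, it was 0.19.

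Scn9a encodes Nav1.7, a channel best known from peripheral sensory neurons, and was near the limit of detection, with 7 to 19 raw counts per control library and 12 to 41 per knockout library. Its normalized counts were 9.45, 19.1, 18.3 and 12.2 against 21.7, 28.2 and 12.9, and the groups overlapped. The log2 fold change was 0.49 with a 95% interval of -0.39 to 1.38 (adjusted p = 0.404), so no direction was resolved at this depth. Without control replicate 3 it was 0.60, without knockout replicate 2 it was 0.16 and without knockout replicate 3 it was 0.78, and it was not called in any of these. Scn4b encodes beta-4, known for its part in resurgent current. It had 3, 8, 8 and 4 raw counts per control library and 1, 3 and 4 per knockout library, and every knockout library was lower after scaling. Summed over libraries these are 23 and 8 counts, a ratio of knockout to control of 0.385 with a 95% exact counting interval of 0.149 to 0.892 that covers counting error only. When genes with low counts were kept in the fit, its log2 fold change was -1.34 ± 0.63 (SE, adjusted p = 0.241).

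Of the 5 calls, 4 were lost in 1 or more of the fits that left out a library. Without control replicate 4 or without knockout replicate 2 only Scn3b remained called, without knockout replicate 1 Scn2b and Scn3b did, and without knockout replicate 3 Scn2a, Scn3a and Scn3b did. Without control replicate 4 the log2 fold changes of the lost genes were 0.76 for Scn1a, 0.59 for Scn2a, 0.60 for Scn3a and 0.78 for Scn2b, close to those with all libraries. Over all genes the number called higher moved as well, from 2122 to 1695, 850, 1209 and 1525 in the same fits. Within the 2 controls and 2 knockouts that had more than 10% of counts on the ribosomal-like genes, the log2 ratio of the group means was 0.65 for Scn1a, 0.49 for Scn2a, 0.44 for Scn3a, 0.21 for Scn8a, 0.45 for Scn2b and 1.65 for Scn3b. In the other class, with 2 controls and 1 knockout, the ratios were 0.88, 0.78, 0.79, 0.33, 1.22 and 1.87 in the same order. These ratios have no test, and since the groups do not overlap in these 6 genes, their direction is fixed in any split.

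**Figure D2:**
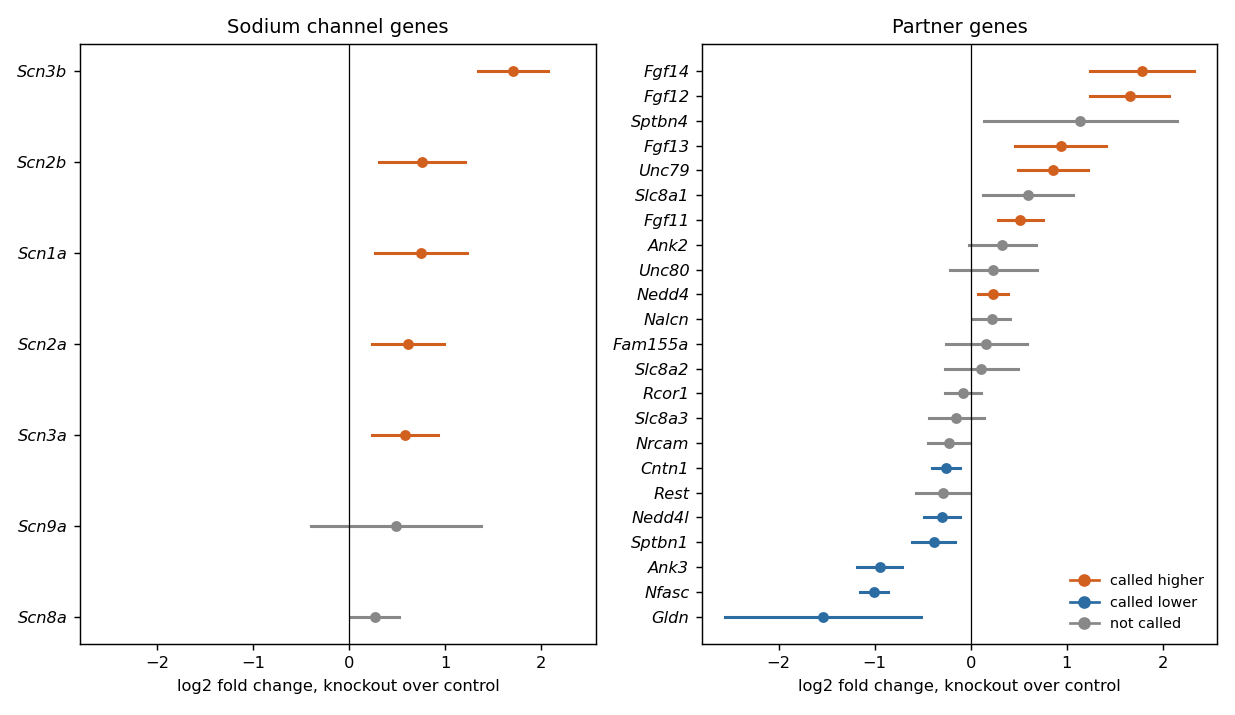
Log2 fold change of knockout over control (x axis) with its 95% interval for the 7 tested sodium channel genes (left) and 23 partner genes (right), coloured orange where called higher, blue where called lower and grey where not called. Scn3b stands apart on the left at 1.71, and on the right the Fgf genes lie above 0 and Nfasc, Ank3 and Gldn below it.

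Levels were compared between genes per length, as CPM divided by the exonic length in kilobases, with TMM factors. In the controls Scn8a was the highest at 1.60 ± 0.205, followed by Scn3b at 1.37 ± 0.21, Scn2b at 1.22 ± 0.065, Scn3a at 0.992 ± 0.17, Scn2a at 0.694 ± 0.13 and Scn1a at 0.217 ± 0.049 (SD, n = 4). Scn4b and Scn9a were far below the others at 0.0285 ± 0.013 and 0.0263 ± 0.0084. Of neighbours in this order, the ranges of Scn8a and Scn3b, of Scn3b and Scn2b, of Scn3a and Scn2a and of Scn4b and Scn9a overlapped, and so did those of Scn8a and Scn2b and of Scn3b and Scn3a. Within single libraries Scn3a was above Scn2a in 4 of 4 controls, and the other 3 neighbouring pairs kept their order in 3 of 4. In the knockout the order began with Scn3b at 4.46 ± 0.72, then Scn2b at 2.06 ± 0.63, Scn8a at 1.93 ± 0.049, Scn3a at 1.49 ± 0.13, Scn2a at 1.06 ± 0.094 and Scn1a at 0.366 ± 0.038 (SD, n = 3). Here the range of Scn2b overlapped those of Scn8a and Scn3a, and Scn2b was above Scn8a in 1 of 3 libraries.

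Summed over the 8 genes, the level per length ran from 5.38 to 6.82 in the controls and from 10.5 to 13.1 in the knockout. The alpha subunits together went from 3.98, 3.89, 2.78 and 3.47 to 5.04, 5.05 and 4.57. The beta subunits together went from 2.84, 2.73, 2.60 and 2.30 to 5.60, 8.05 and 5.94. Per length, beta subunits stood below alpha subunits in every control and above them in every knockout library. Without division by length the alpha subunit sum was the larger in all 7 libraries. The share of Scn3b in the sum was 22.3% ± 3.1 in the controls and 38.9% ± 1.3 in the knockout, and that of Scn8a was 26.0% ± 1.6 and 17.1% ± 2.3. Relative to Scn8a in the same library, the log2 count ratio of Scn3b was -1.74, -1.73, -1.43 and -2.13 in the controls and -0.50, -0.05 and -0.46 in the knockout, a difference of 1.42. The same difference was 0.50 for Scn1a, 0.35 for Scn2a and 0.32 for Scn3a, each without overlap between groups, while the groups overlapped for Scn2b (0.43) and Scn9a (0.21). These ratios were not tested.

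**Figure D3:**
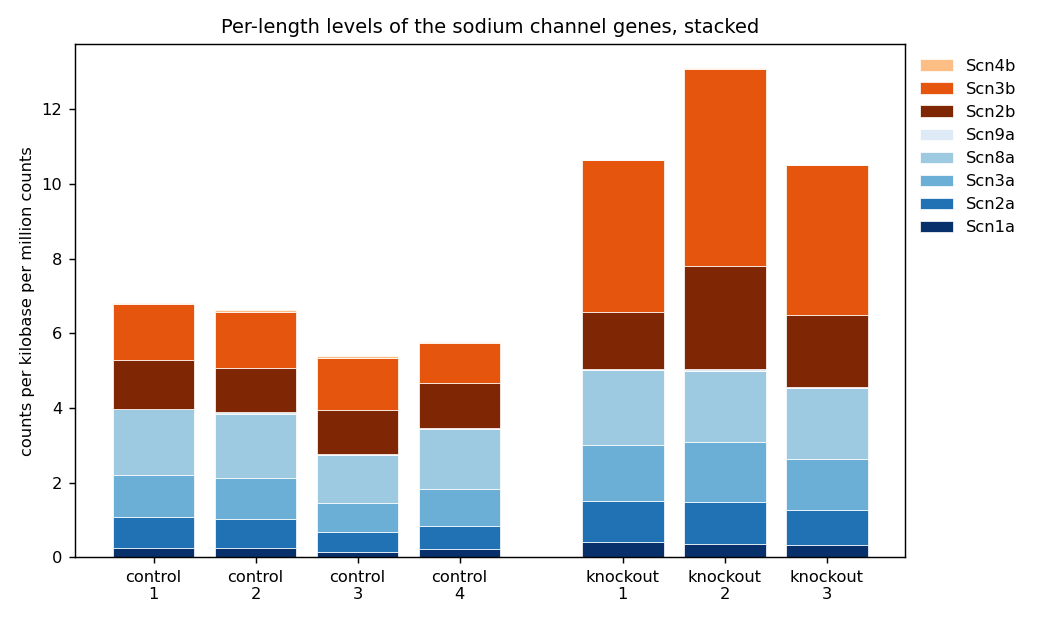
Per-length level (y axis, linear from 0, CPM divided by exonic kilobases) of the 8 sodium channel genes, stacked for each of 4 control and 3 knockout libraries, alpha subunits in blue and beta subunits in orange to brown. The bars reach 5.38 to 6.82 in the controls and 10.5 to 13.1 in the knockout, and the widest gain is the Scn3b segment.

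Partner genes of the channels were taken from a list of 23, all of which were tested. Of these, 6 were called higher, 6 lower and 11 not called, and their median was 0.16 on the log2 scale. Across all genes tested 11.6% were higher and 12.2% lower, and the list was not tested as a set. The 4 fibroblast growth factor homologous factors, cytoplasmic proteins that bind the tail of the pore and shift its inactivation, were all called higher. Fgf12 went from 465 ± 104 to 1462 ± 118 normalized counts (log2 fold change 1.65 ± 0.17 SE, adjusted p = 0.00109). The values of Fgf14, Fgf13 and Fgf11 were 1.79, 0.94 and 0.52 on the log2 scale.

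Of the 8 scaffold and adhesion genes of the axon initial segment and node, 5 were called lower (4 with limma-voom) and 0 higher. Over all genes tested, 12.2% were lower and 11.6% higher. At an unadjusted p of at most 0.05 edgeR had 1 of the 8 genes higher, Sptbn4, which DESeq2 also called and limma-voom did not. Nfasc, whose glial product is an adhesion molecule of the paranode and which also has a neuronal product at the node, fell from 123570 ± 2586 to 61467 ± 2291 normalized counts, a log2 fold change of -1.01 ± 0.06 (SE, adjusted p = 9.08e-05). Ank3, the ankyrin that anchors sodium channels to the membrane skeleton, was at 18802, 18048, 14288 and 18430 in the controls and at 9000, 9141 and 8898 in the knockout, a log2 fold change of -0.95 ± 0.10 (SE, adjusted p = 0.00111). Both had every knockout library below every control, an order seen in 18.0% of all genes tested. Sptbn1, a beta spectrin, fell by 0.39 on the log2 scale (adjusted p = 0.0258), Cntn1, a contactin of the paranode, fell by 0.26 and Gldn, the nodal protein gliomedin, by 1.54. With the replicate block, Gldn was not called (adjusted p = 0.112) and Sptbn4 was called higher (adjusted p = 0.0241).

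Of the ubiquitin ligases that remove channels from the membrane, Nedd4 was higher by a log2 fold change of 0.23 (32252 ± 1974 to 37880 ± 922 normalized counts, adjusted p = 0.0404, and 0.0828 with the replicate block), and Nedd4l was lower by 0.30 on the same scale (adjusted p = 0.0366). Neither Rest, the repressor of neuronal channel genes, nor its corepressor gene Rcor1 was called, at -0.29 and -0.08. In the sodium leak channel complex Unc79 was called higher at 0.85, and Nalcn, Unc80 and Fam155a were not called. The 3 sodium-calcium exchanger genes were not called by edgeR. Slc8a1 (log2 fold change 0.60) passed an unadjusted p of 0.05, was called by DESeq2 and limma-voom and had an adjusted p of 0.0187 with the replicate block.

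The summed levels of the neuronal and astrocyte marker lists were higher in the same libraries as the sodium channel genes. Single pan-neuronal markers went both ways, with log2 fold changes from -0.73 to 2.43. In bulk RNA, a change in the number of cells of a type and a change in RNA per cell cannot be told apart. All 7 inhibitory neuron markers were called higher (11.6% of all genes tested were), with summed levels of 122, 157, 56.4 and 36.6 CPM in the controls and 328, 475 and 299 in the knockout. Its most abundant genes, Gad1 for GABA synthesis and the homeobox gene Dlx1, had log2 fold changes of 1.80 and 2.32. Of 13 pan-neuronal markers 8 were higher and 0 lower in edgeR, with sums of 987 to 1399 against 1831 to 2299. The number called lower was also 0 with DESeq2 and limma-voom, and 2 with the replicate block. At an unadjusted p of at most 0.05, 1 pan-neuronal marker was lower in edgeR, DESeq2 and limma-voom alike. By the mean over all 7 libraries the most abundant of them were Map2, called higher at 0.73, and Elavl3, at -0.46 and not called, while in the knockout Dcx, at 2.43, was above Elavl3. No marker of any list was at 0 in all libraries.

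Knockout replicate 2 was the highest in the inhibitory neuron sum, in the astrocyte sum and in the beta subunit sum, which was 14.4, 13.9, 13.3 and 11.6 CPM in the controls and 29.4, 41.7 and 30.9 in the knockout. The alpha subunit sum was 55.3, 54.0, 38.9 and 48.4 against 69.2, 69.0 and 63.1, with knockout replicates 1 and 2 level. Among the controls, replicate 4 was the lowest in inhibitory neuron markers and in beta subunits, while replicate 3 was the lowest in alpha subunits. For the counts of calls that follow, 11.6% of all genes tested were called higher and 12.2% lower. All 8 astrocyte markers were called higher, and 7 with the replicate block, with sums of 2286 to 3181 against 4520 to 5320. The log2 fold changes were 0.66 for Gfap and 1.19 for Aqp4, the most abundant of them by the mean over all 7 libraries. Of 7 OPC markers 2 were higher (4 with DESeq2, 3 with limma-voom), with sums of 3381 to 3654 against 4258 to 4281, and of the most abundant Ptprz1 was called (0.33) and Gpr17 was not (0.26). Microglial markers had 0 of 8 called, by DESeq2 and limma-voom as well, and 0 at an unadjusted p of at most 0.05 (3 lower with the replicate block), with C1qa and C1qb at -0.41 and -0.32. Of 6 fibroblast and mural markers 1 was lower (4 with DESeq2, 0 with limma-voom, 3 with the replicate block), with sums of 219, 141, 938 and 710 in the controls against 48.7 to 150, so that control replicates 3 and 4 stood apart, and Col1a1 and Col1a2 stood at -2.30 and -2.64, not called. The part of these cells in the values of the sodium channel genes was not tested.

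**Figure D4:**
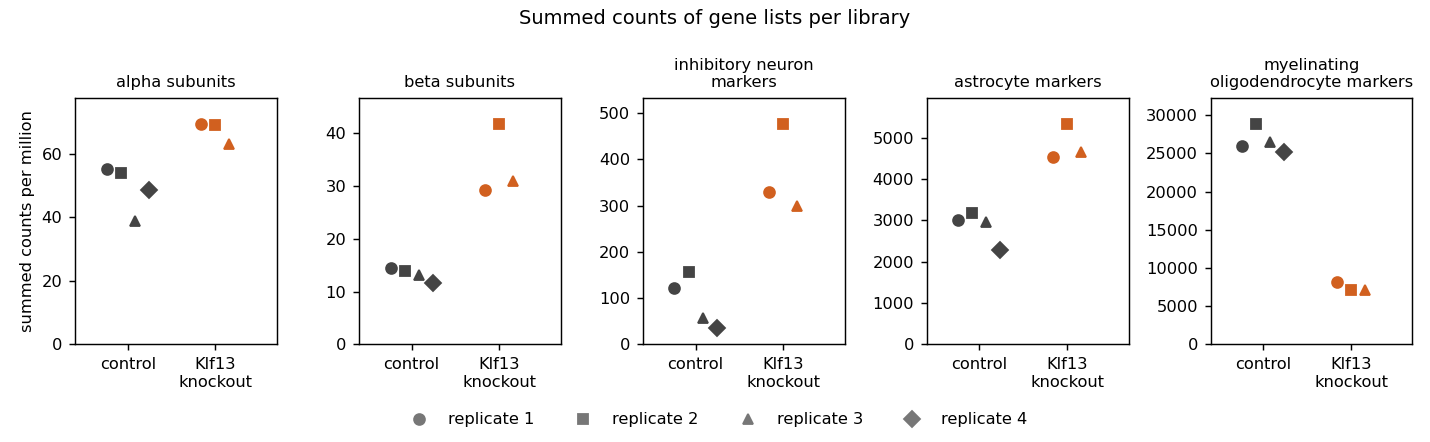
Summed CPM (y axis, linear from 0, a separate scale in each panel) of the alpha subunits, the beta subunits and the inhibitory neuron, astrocyte and myelinating oligodendrocyte markers in 4 control (grey) and 3 knockout (orange) libraries, with symbols for replicate numbers. Groups do not overlap in any of the 5 panels, and the myelinating oligodendrocyte panel is the only one with the knockout below the controls.

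Neighbouring genes were read for the chromosome 2 and 9 clusters, taking protein-coding genes between the outermost sodium channel genes and within 1 Mb of one. On chromosome 2 there were 3, of which Csrnp3, next to Scn2a, was higher at a log2 fold change of 0.87 (adjusted p = 0.0258) and Galnt3 and Ttc21b were not called, at -0.27 and -0.06. On chromosome 9 there were 45, of which 32 were tested. Of these 3 were higher (Clmp, Abcg4 and Kmt2a), 5 lower (Mcam, H2afx, Phldb1, Ube4a and Mpzl3) and 24 not called, counts near the 11.6% higher and 12.2% lower of all genes tested. Gramd1b, the gene next to Scn3b, had a log2 fold change of -0.22 and was not called.

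For the 3 sodium channel genes with the highest level, the closest patterns over the 7 libraries were sought by the root mean squared difference of centred log2 counts. Nearest to Scn3b were Gpr6, Fgf12 and Isoc1 at 0.117, 0.118 and 0.131, against a median of 0.896 over all genes, and no other sodium channel gene was nearer than Scn2b at 0.527 (rank 1078). Nearest to Scn8a were Slc19a1, Trpt1 and Rnf182 at 0.0418, 0.0425 and 0.0464 (median 0.326). Nearest to Scn2b were Gm45716, Selenbp1 and Serp2 at 0.126, 0.128 and 0.138 (median 0.494). These distances describe 7 libraries of the same 2 groups and carry no test.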

How the data were processed

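RNA was sequenced from 7 cultures (4 control, 3 knockout). The authors trimmed reads with Trimmomatic 0.36, mapped them with STAR 2.5.2b to GRCm38 and deposited raw counts per gene over exons from featureCounts (Subread 1.5.2), without normalization. The library kit was NEBNext Ultra II. The annotation release and strand setting are not given in the sources used here. Symbols were found for 48970 of 49315 identifiers. Coordinates are given on GRCm38. GENCODE M21 held 49056 of the identifiers, and for 44823 genes both ends matched those in the count files.

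Counts were fitted in R 4.3.3 with edgeR 4.0.16 (filterByExpr, TMM factors, robust quasi-likelihood test, two-sided, group as the only term), with p adjusted by Benjamini-Hochberg over the 18352 genes tested and called at 0.05. The SE is the absolute log2 fold change divided by the root of the F statistic. For normalized counts, each count was divided by its library's TMM-scaled size and multiplied by the mean of these sizes. DESeq2 1.42.0 and limma 3.58.1 (voom), other scalings, other filters, a replicate block and leaving out each library were alternatives. The steps were tested on simulated data. A count of 0 allows up to 3 counts in a library. P-values set the difference between groups against the spread between these libraries. Whether that spread is the one between animals is not known. Libraries of a group differed by more than sampling noise.

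The replicate numbers of the labels are shared by the groups. Deviations from the group means correlated over genes at 0.113, 0.463 and 0.168 for numbers 1 to 3, all above 0.1, and between -0.529 and 0.197 for pairs with different numbers, 3 of which were above the lowest of the same-number pairs. No source states a shared batch. The reported fit has no block. For sodium channel and partner genes, the value with the block is given where it changes a call. For the marker lists only numbers of calls with the block are given, and for the chromosome neighbours none.

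Named genes were the 8 sodium channel genes, the 3 partner genes with the lowest adjusted p and the 3 with the highest counts, the 2 most abundant markers of a list, neighbours within 1 Mb, and nearest patterns. Other partner genes and neighbours were named to give list counts. The members and lists were chosen with earlier results of these data known. The split by ribosomal-like share, and limma-voom for the partner genes, were chosen after seeing the data.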

Additional observations from a re-analysis of the deposited data

Results flagged for a closer look

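In the controls, Ank3 was at 14288 normalized counts in replicate 3 against 18048 to 18802 in the other 3, a gap of 0.833 of the whole range, past Dixon's 95% limit for 4 samples. It was the single flag among 14 groups of values examined, and chance flags about 1 in 20 groups. The control value still lay above all 3 knockout libraries.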

How the results depend on the processing

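The number of sodium channel genes called higher was 5 with DESeq2, limma-voom, DESeq2 size factors, upper quartile factors, total counts, library sizes without the ribosomal-like genes, no filter and a filter of 10 counts in every library. With the replicate block it was 4, since Scn2b was lost, and the block changed no other call among these genes. Leaving out 1 library gave between 1 and 5, with a single call left without control replicate 4 or knockout replicate 2. No log2 fold change of a tested sodium channel gene changed sign, the number called lower stayed at 0, and the number at a log2 fold change of 1 or more stayed at 1, Scn3b, in every alternative. The filter of 10 counts gave no value for Scn9a. Of the partner genes, 7 were higher and 5 lower with the block, 8 and 6 with DESeq2, and 7 and 5 with limma-voom. The share of calls that were higher, over all genes, was 48.6%, and ran from 39.2% (without knockout replicate 2) to 56.5% (upper quartile factors). Without division by length Scn8a and not Scn3b was the highest over all libraries. Scn9a had 7 to 41 counts per library, and no direction was resolved for it. The part of depth in this was not tested.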
